A study of Homo sapiens with 6 samples.

Results

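The imprinted SNRPN, IPW and UBE3A locus on chromosome 15 was read from gene-level RNA-Seq values of PC-3 cells with and without a tristetraprolin (TTP) transgene. Its members were every row on chromosome 15 that carried SNRPN, SNURF, IPW, UBE3A, NDN, MAGEL2 or a symbol starting with SNORD115 or SNORD116. The members were selected on the FPKM values of both groups, which were known when the genes were proposed, so those values are given as a description with no test. The rule found 77 rows, which named 73 symbols at 45 distinct loci, among 406165 rows in all and 30202 rows with a gene symbol. Rows were numbered along the chromosome in a series with SNURF/SNRPN and IPW, then in a second with NDN, MAGEL2 and UBE3A. These are called the SNRPN series and the UBE3A series below. Strand was not given, and whether the series stand for opposite strands was not tested.

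PC-3 cells are a human prostate cancer line, long established from a bone metastasis. Both groups first received a retrovirus for the Tet-On transactivator and were selected in G418. The tdTom group then received a Tet-responsive vector that also expressed the red fluorescent protein tdTomato from a PGK promoter, and the TTP-tdTom group received the same vector carrying TTP. Cells of both groups were sorted for tdTomato, and 3 samples of each were collected after 4 hours in 300 ng/ml doxycycline, so that the transactivator, the drug and the fluorescent protein were shared. Values were FPKM, meaning fragments corrected for the length of the transcript and the size of the library, with 1 value per group and row given by the authors. There is therefore no spread between replicates, no test was run on any value, and the number of fragments behind a value is unknown. ZFP36, the gene for TTP, stood at 5.56 FPKM in the tdTom group and 5.54 FPKM in the TTP-tdTom group, so the row of the targeted gene showed no rise in the group labelled TTP-tdTom. Whether fragments of the transgene were counted in that row was not tested, and "with TTP" below means the group labelled TTP-tdTom. The epithelial keratin KRT18 stood at 98.2 FPKM in the tdTom group and 91.5 FPKM in the TTP-tdTom group.

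TTP binds AU-rich elements in the 3′UTRs of mRNAs and recruits the machinery that shortens the poly(A) tail and degrades the message. The chromosome 15 domain is the region involved in Prader-Willi and Angelman syndromes. From the paternal chromosome a long transcript starts at SNURF-SNRPN and runs through tandem arrays of small nucleolar RNAs (snoRNAs), SNORD116 and then SNORD115, with the noncoding gene IPW between them. NDN and MAGEL2 lie upstream and are also expressed from the paternal copy, whereas UBE3A, which encodes the ubiquitin ligase E6-AP, is expressed from the maternal copy in neurons and from both copies in most other tissues. Box C/D snoRNAs are cut from introns and most of them guide 2′-O-methylation of RNA, but no such target is established for SNORD116.

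Many snoRNA copies of a family are close in sequence, so reads from one such copy can be assigned to another, and SNORD115 and SNORD116 values of close copies are uncertain for that reason. The following SNORD116 sequences are those of the 4 copies whose own rows carried most of the signal. They are GENCODE release 29 sequences, printed 5′ to 3′, and the capitals mark the C box (TGATGA within the first 20 bases) and the D box (CTGA within the last 15 bases), both read on the sense strand.
SNORD116-1: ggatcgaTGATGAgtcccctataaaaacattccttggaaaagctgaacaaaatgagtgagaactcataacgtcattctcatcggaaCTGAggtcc
SNORD116-2: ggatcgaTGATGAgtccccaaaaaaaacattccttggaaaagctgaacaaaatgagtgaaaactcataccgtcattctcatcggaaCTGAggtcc
SNORD116-18: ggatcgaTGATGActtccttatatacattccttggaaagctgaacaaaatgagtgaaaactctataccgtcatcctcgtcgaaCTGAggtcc
SNORD116-26: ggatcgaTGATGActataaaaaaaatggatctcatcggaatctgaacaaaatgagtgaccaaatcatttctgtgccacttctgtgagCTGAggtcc

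SNORD116-1 and SNORD116-2 were 95.8% identical, SNORD116-1 and SNORD116-18 were 86.5% identical, and SNORD116-1 and SNORD116-26 were 71.2% identical. Over the family, the median identity between pairs was 95.8% among copies 1 to 9, 92.4% among copies 10 to 24 and 79.2% among copies 25 to 30. Of the 30 SNORD116 copies in the annotation, 28 held the C box, all 30 held the D box, and 6 had another copy of identical sequence. Among 877 other annotated snoRNAs, 19.5% held the C box and 40.3% the D box by the same letters and windows. Those 877 were snoRNAs of every class, not only box C/D, so the shares are no reference for box C/D snoRNAs.

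SNORD115 is known for a stretch complementary to the mRNA of HTR2C, the serotonin receptor 2C, at a site of RNA editing and alternative splicing. The SNORD115 copies below are the first of the array and 3 of the 7 whose FPKM values are described later, chosen after those values were seen, and the capitals mark the longest stretch that is the exact reverse complement of an HTR2C transcript.
SNORD115-1: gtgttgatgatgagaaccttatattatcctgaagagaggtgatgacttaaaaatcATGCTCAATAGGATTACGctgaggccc
SNORD115-2: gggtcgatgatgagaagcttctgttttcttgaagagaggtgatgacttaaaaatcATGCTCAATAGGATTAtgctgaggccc
SNORD115-24: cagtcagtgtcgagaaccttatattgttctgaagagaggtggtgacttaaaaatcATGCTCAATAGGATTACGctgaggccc
SNORD115-44: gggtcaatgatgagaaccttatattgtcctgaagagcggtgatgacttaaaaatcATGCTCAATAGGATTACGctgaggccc
HTR2C coding sequence: caataCGTAATCCTATTGAGCATagccg

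The match was 18 bases in SNORD115-1, SNORD115-24 and SNORD115-44 and 16 bases in SNORD115-2, and 29 of the 48 annotated SNORD115 copies held all 18. The C box letters were found in 42 of the 48 copies, with SNORD115-24 among those without them. HTR2C itself stood at 0.193 FPKM in the tdTom group and 0.315 FPKM in the TTP-tdTom group in these cells.

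Of the 77 member rows, 57 were listed at 0 in both groups, 19 were above 0 in both, and 1 was above 0 with TTP only. A mean of at least 1 FPKM over both groups was reached by 8 rows, and these were SNURF/SNRPN, UBE3A, the row that holds IPW, SNORD116-1, SNORD116-2, SNORD116-18, SNORD116-26 and SNORD115-2. At least 1.5-fold lower with TTP were 3 of the 8, against a background of 23.7% of the 13568 rows with a symbol and a mean of at least 1 FPKM. At least 1.5-fold higher were 2 of the 8, against a background of 6.16% of the same rows. The values of these rows chose the members, so nothing is read from the 2 counts. The log2 ratio of TTP-tdTom over tdTom, computed with 0.1 FPKM added to both values, had a median of -0.22 over the 8 rows and of -0.23 over the background. Scaling both groups to the same sum over all rows, of which rows over 10000 FPKM held 99.5% without TTP and 95.4% with it, would shift these ratios by about 3.09 and turn the IPW row, UBE3A, SNORD116-26 and SNORD116-18 to 0.90, 1.98, 1.56 and 2.56. Because the table was made from bulk RNA, a lower value can come from fewer cells that express a gene or from less RNA per cell, and these cannot be told apart.

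**Figure D1:**
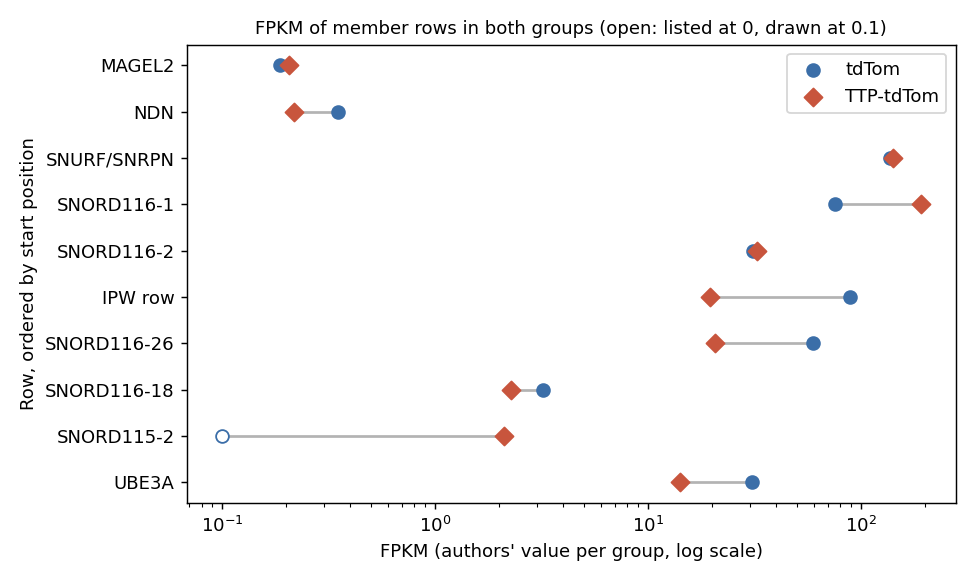
FPKM (log axis) of the 8 member rows with a mean of at least 1 FPKM and of NDN and MAGEL2, in order of start position, with a circle for the tdTom group and a diamond for the TTP-tdTom group, 1 authors' value each. SNURF/SNRPN and SNORD116-2 had nearly the same value in both groups, the IPW row, SNORD116-26 and UBE3A were lower with TTP, and SNORD116-1 was higher.

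SNURF and SNRPN shared a single row with 6 RefSeq transcripts at chr15:25068794-25224086 of GRCh37, so the 2 genes cannot be read apart. SNURF encodes a small upstream reading frame on the shared transcript, and SNRPN encodes SmN, a variant of the Sm proteins SmB and SmB′ that bind spliceosomal small nuclear RNAs. The row stood at 136.6 FPKM in the tdTom group and 141.3 FPKM in the TTP-tdTom group. This was the highest tdTom value of any member row, and 3.52% of background rows were higher in that group. The log2 ratio was 0.05, above that of 80.0% of background rows, whose median was -0.23. SNRPB, which encodes SmB and SmB′, stood at 30.8 FPKM in the tdTom group and 26.6 FPKM in the TTP-tdTom group. The SNRPN and SNRPB coding sequences were 81.0% identical, and their longest shared run was 32 bases, shorter than the 75-base reads. SNURF/SNRPN was thus the more abundant of the 2 Sm genes in both groups by FPKM, which is scaled per length.

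UBE3A occupied 1 row with 3 RefSeq transcripts at chr15:25579782-25684252. It stood at 30.6 FPKM in the tdTom group and 14.2 FPKM in the TTP-tdTom group, a log2 ratio of -1.11. The TTP-tdTom value was 46.3% of the tdTom value, and 7.77% of background rows had a lower log2 ratio. As background, TTP has been linked to the decay of E6-AP mRNA in cervical cancer cells. The heptamer TATTTAT, a core of the TTP binding site, was sought on the sense strand in the longest annotated 3′UTR of each coding member. UBE3A, with a 3′UTR of 6353 bases in GENCODE release 29, was the member that held it, at 2 places shown here with the heptamer in capitals and counted from the first base of the 3′UTR.
UBE3A 3′UTR bases 1252 to 1258: tttttctgaaTATTTATtttaagggtt
UBE3A 3′UTR bases 2871 to 2877: attattatggTATTTATtaaagttcta

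A long 3′UTR holds such letters often. Among 854 3′UTRs of 0.8 to 1.25 times that length, 75.2% held the heptamer, with a median of 1 copy, and over all 19128 genes the share was 31.1%. The 3′UTRs of SNRPN (279 bases), SNURF (371 bases), NDN (852 bases) and MAGEL2 (444 bases) did not hold these letters, and 7.84%, 9.59%, 21.8% and 12.3% of 3′UTRs of like length did. The match is a description of the sequence, and binding was not measured.

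IPW, a spliced noncoding RNA of the paternal chromosome, stood in a row that also named SNORD116-10, SNORD116-13, SNORD116-16, SNORD116-17, SNORD116-18, SNORD116-20 and SNORD116-21, at chr15:25319012-25367623. This IPW row stood at 88.7 FPKM in the tdTom group and 19.5 FPKM in the TTP-tdTom group. The log2 ratio was -2.18, the lowest of the 8 member rows, and the TTP-tdTom value was 21.9% of the tdTom value. A lower log2 ratio was found in 1.81% of background rows. Because IPW and 7 snoRNA copies shared the row, its value cannot be given to IPW alone. Restricted to rows with only noncoding RefSeq names, of which 1206 had a mean of at least 1 FPKM, the background was 25.9% at least 1.5-fold lower and 17.3% at least 1.5-fold higher, with a median log2 ratio of -0.20.

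The same span of chromosome was given to 16 member rows, and 13 of them were listed at 0 in both groups. The 3 with values were the IPW row, SNORD116-18 and SNORD116-26. SNORD116-18 had a row of its own beside its place in the IPW row, with 3.22 FPKM in the tdTom group and 2.28 FPKM in the TTP-tdTom group. SNORD116-26 stood at 59.5 FPKM in the tdTom group and 20.6 FPKM in the TTP-tdTom group, a log2 ratio of -1.52. All 3 were lower with TTP, by log2 ratios of -2.18, -0.48 and -1.52. The SNORD116-26 row carried the mark NOTEST, which the Cufflinks comparison gives to rows with too few alignments.

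At the upstream end of the array the values ran differently. SNORD116-1, in a row of 1742 bases at chr15:25296443-25298184, stood at 75.6 FPKM in the tdTom group and 190.5 FPKM in the TTP-tdTom group. Its log2 ratio of 1.33 was above that of 95.9% of background rows. SNORD116-2, in a neighbouring row at chr15:25298622-25300452, stood at 31.1 FPKM in the tdTom group and 32.6 FPKM in the TTP-tdTom group, a log2 ratio of 0.07. A second row for SNORD116-2 in the same span stood at 0.378 FPKM and 0.493 FPKM respectively. That second row lay in the UBE3A series, and the row at 31.1 FPKM in the SNRPN series. Since SNORD116-1 and SNORD116-2 were 95.8% identical, how their reads were divided between the rows is uncertain.

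The remaining SNORD116 rows with values were at or below 1.03 FPKM in both groups. SNORD116-4 stood at 1.03 FPKM in the tdTom group and 0.527 FPKM in the TTP-tdTom group, and SNORD116-6 at 0.861 FPKM and 0.910 FPKM respectively. A row of 1327 bases named SNORD116-5 stood at 0.296 FPKM in the tdTom group and 0.603 FPKM in the TTP-tdTom group. Of the 26 SNORD116 rows, the IPW row included, 17 were listed at 0 in both groups, 5 were higher with TTP and 4 were lower. Of background rows, all with a mean of at least 1 FPKM, 76.5% were lower by any amount, and 63.5% of those with only noncoding names. The 5 higher rows include rows under 1 FPKM, among them the second SNORD116-2 row, of the UBE3A series. Nothing is read from the count, and SNORD116-1 was higher while the IPW row was lower.

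SNORD115 was at or near 0. Of its 47 rows, 40 were listed at 0 in both groups, and no row passed 0.430 FPKM in the tdTom group. The highest value in the TTP-tdTom group was 2.12 FPKM, at SNORD115-2 (chr15:25417632-25417950), which was listed at 0 in the tdTom group, so no fold is given. SNORD115-24 stood at 0.0433 FPKM in the tdTom group and 1.25 FPKM in the TTP-tdTom group. SNORD115-34 stood at 0.0391 FPKM in the tdTom group and 0.931 FPKM in the TTP-tdTom group, and SNORD115-33 at 0.341 FPKM and 0.577 FPKM. SNORD115-44 stood at 0.430 FPKM in the tdTom group and 0.614 FPKM in the TTP-tdTom group. SNORD115-10 stood at 0.339 FPKM and 0.0676 FPKM, and SNORD115-13 at 0.221 FPKM and 0.211 FPKM. For SNORD115-2, SNORD115-10, SNORD115-13 and SNORD115-34, another row over the same span was listed at 0 in both groups. In each case the row at 0 lay in the SNRPN series and the row with the value in the UBE3A series. Whether those values came from SNORD115 or from RNA of the opposite strand was not tested. The row of SNORD115-34 at 0 was shared with other SNORD115 copies. Of the 7 rows with a value, 5 were higher with TTP and 2 lower, all at levels where a few fragments can set the value. With no filter on low values, 16.6% of all rows with a symbol were at least 1.5-fold higher and 19.1% at least 1.5-fold lower. At a mean of at least 1 FPKM these shares were 6.16% and 23.7%. The share of low rows higher by any amount was not computed, so nothing is read from the count.

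Narrow rows with a symbol were nearly all at 0. All 30 member rows of up to 100 bases were listed at 0 in both groups, against 27 of the 47 wider rows, and the narrowest member row with a value was 319 bases wide. All 38 SNORD rows of up to 100 bases that were no members were listed at 0 too, as were 361 of all 368 such rows with a symbol that were no members. Rows of up to 100 bases without a symbol differed, with 27 of 719 listed at 0 in both groups. The width is that of the span, which several rows can share, and the lengths of the assembled transcripts were not used here. A 0 in such a row does not show that the mature snoRNA was missing from the cells. The mark for too few alignments stood at 64 of the 77 member rows.

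NDN and MAGEL2, at the upstream end of the domain, encode proteins of the MAGE family. NDN (chr15:23930554-23932450) stood at 0.351 FPKM in the tdTom group and 0.217 FPKM in the TTP-tdTom group. MAGEL2 (chr15:23888696-23892993) stood at 0.187 FPKM in the tdTom group and 0.205 FPKM in the TTP-tdTom group. Both rows carried the mark for too few alignments. Among all 30202 rows with a symbol, whatever their level, 65.4% stood higher than NDN in the tdTom group and 77.7% higher than MAGEL2, against 1.58% for SNURF/SNRPN.

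**Figure D2:**
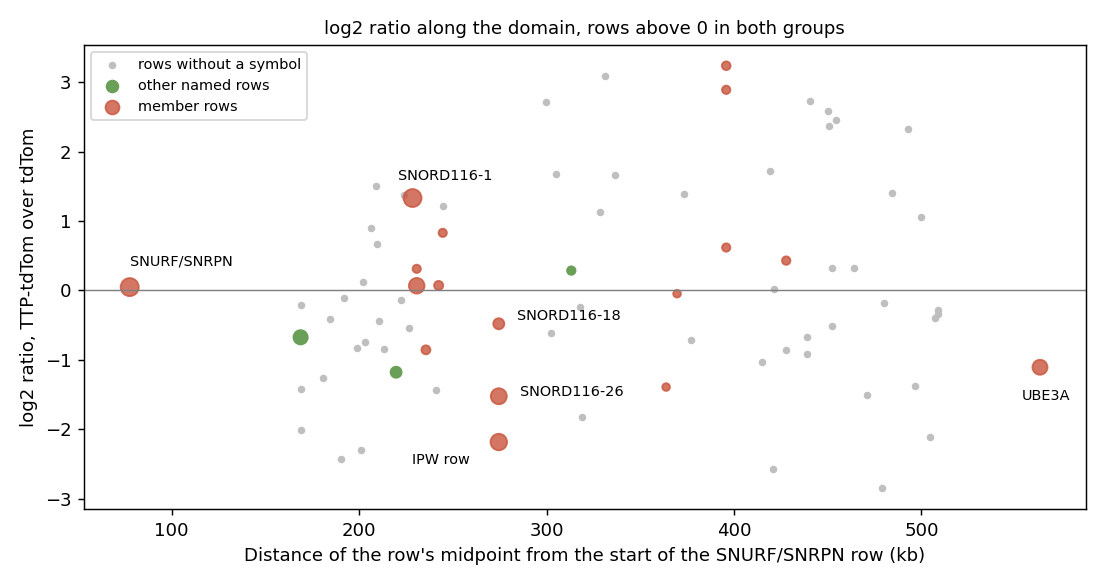
log2 ratio of TTP-tdTom over tdTom against the distance of each row's midpoint from the start of the SNURF/SNRPN row, in kb, for rows above 0 in both groups; red points are member rows and green points other named rows, both sized by mean FPKM, and grey points are rows without a symbol. SNURF/SNRPN lay at 0.05, SNORD116-1 at 1.33, the IPW row at -2.18 and UBE3A at -1.11, and the 3 rows over the IPW span share 1 midpoint. Rows of both the SNRPN and the UBE3A series are drawn.

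Between SNURF/SNRPN and SNORD116-1 the table held further named rows of the paternal transcript. A row for PAR5 and PAR-SN, noncoding transcripts just downstream of SNRPN, stood at 17.8 FPKM in the tdTom group and 11.1 FPKM in the TTP-tdTom group. SNORD109A, a snoRNA upstream of the SNORD116 array, stood at 3.67 FPKM in the tdTom group and 1.57 FPKM in the TTP-tdTom group in 1 row and was listed at 0 in both groups in another row past SNORD115. Their log2 ratios were -0.67 and -1.18. Further downstream, PAR1 stood at 0.426 FPKM in the tdTom group and 0.542 FPKM in the TTP-tdTom group, and PAR4, listed at 0 without the transgene, stood at 0.819 FPKM with it.

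Assembled rows without a symbol filled the gaps. Rows of the SNRPN and UBE3A series were pooled in each count and median, so these are not values of the paternal transcript alone. From MAGEL2 to UBE3A, 184 of 287 such rows were above 0 in both groups, with 82 lower and 102 higher with TTP and a median log2 ratio of 0.29. Between the end of SNURF/SNRPN and SNORD116-1, a span of 72.4 kb, 19 such rows were above 0 in both groups, and 14 were lower with TTP and 5 higher, where 40.2% of all rows without a symbol above 0 in both groups were lower. At least 1.5-fold lower were 8 of the 19 and at least 1.5-fold higher were 4, against 28.3% and 45.9% of the 272209 rows without a symbol that were above 0 in both groups. Their median log2 ratio was -0.44, and that of all such rows was 0.42. Between the end of the IPW row and SNORD115-1, a span of 48.2 kb, 8 of 12 rows were above 0 in both groups, with 3 lower and 5 higher and a median log2 ratio of 1.39. Most of the 5 higher rows lay in the UBE3A series. Among those 8, the 3 with a mean of at least 1 FPKM had a median of -0.23. That median leaves out the 176-base row given below, which also reached this mean but was at 0 in the tdTom group. From SNORD115-1 to UBE3A, 27 of 31 rows were above 0 in both, with 15 lower, 12 higher and a median of -0.28. Most of those 31 rows lay in the UBE3A series, whereas nearly all 19 rows before SNORD116-1 lay in the SNRPN series. A row of 176 bases at chr15:25371880-25372055, just past the IPW span, was listed at 0 in the tdTom group and stood at 15.8 FPKM in the TTP-tdTom group. In the same stretch a row of 427 bases went from 0 to 1.98 FPKM, and rows of 348 and 291 bases, at 1.03 FPKM and 1.85 FPKM in the tdTom group, were listed at 0 in the TTP-tdTom group. The median values of these rows were 1.26 FPKM in the tdTom group and 1.08 FPKM in the TTP-tdTom group in the stretch before SNORD116-1, far under that of SNURF/SNRPN.

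Genes that flank the imprinted domain are a further reference. NIPA1 and NIPA2, magnesium transporters, stood at 48.0 FPKM and 25.2 FPKM in the tdTom group and at 31.8 FPKM and 17.8 FPKM in the TTP-tdTom group. CYFIP1, of the WAVE complex, stood at 19.8 FPKM in the tdTom group and 17.8 FPKM in the TTP-tdTom group, and TUBGCP5, of the gamma-tubulin complex, at 8.59 FPKM and 6.89 FPKM. HERC2, a HECT ubiquitin ligase that binds E6-AP, stood at 21.9 FPKM in the tdTom group and 18.3 FPKM in the TTP-tdTom group in the highest of its 5 rows. In 1 row OCA2, which encodes a melanosomal membrane protein, stood at 9.80 FPKM in the tdTom group and was listed at 0 in the TTP-tdTom group. The other OCA2 rows of the same span stood at 0.355 FPKM and 0.225 FPKM in the tdTom group and at 0.309 FPKM and 0.324 FPKM in the TTP-tdTom group. The row at 9.80 FPKM lay in the SNRPN series, and the row at 0.225 FPKM in the UBE3A series beside HERC2. Whether the 9.80 FPKM belonged to OCA2 or to RNA of the opposite strand was not tested. Under 1 FPKM in both groups were MKRN3, C15orf2, PWRN1, PWRN2, ATP10A, GABRA5 and GABRG3, the last 2 being subunits of the GABA-A receptor. Of the listed neighbours without the member rows, 8 had a mean of at least 1 FPKM. Of these, 4 were at least 1.5-fold lower with TTP and none was 1.5-fold higher, against 23.7% and 6.16% of background rows. The 4 were NIPA1, the OCA2 row of uncertain origin and, inside the imprinted domain rather than flanking it, PAR5/PAR-SN and SNORD109A. All 8 were lower by any amount, as were 76.5% of background rows. Their median log2 ratio was -0.55, and -0.50 without the OCA2 row. The region also held 5 rows of at least 1 FPKM outside the list, for LOC283683, WHAMMP3, HERC2P2, HERC2P7 and LOC653061, with log2 ratios from -0.25 to 0.20, and 3 of these were higher with TTP. With the member rows the region's list held 15 rows, of which 7 were at least 1.5-fold lower and 2 at least 1.5-fold higher, and the median was -0.50.

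**Figure D3:**
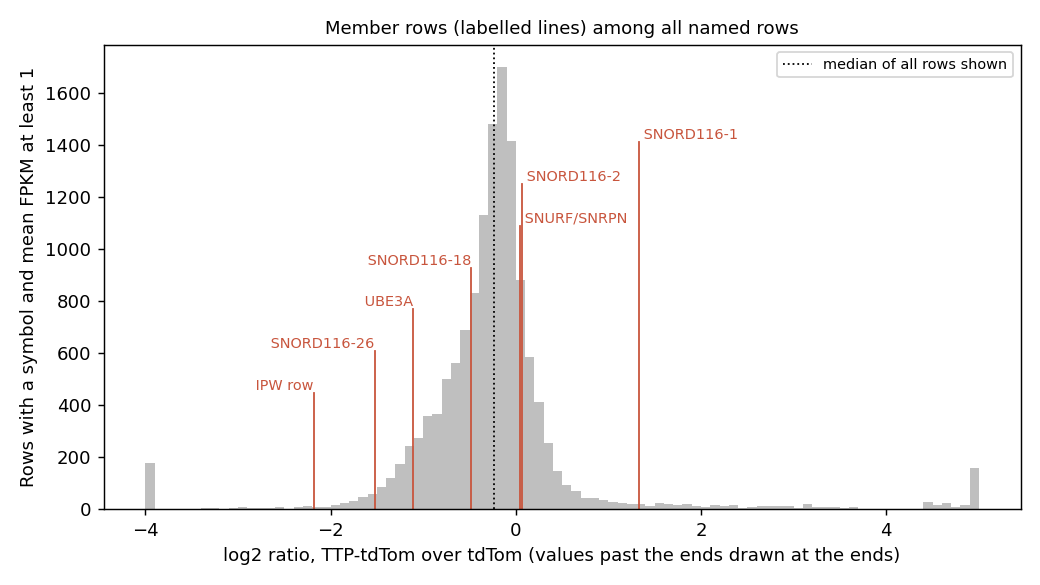
Number of rows with a symbol and a mean of at least 1 FPKM by log2 ratio of TTP-tdTom over tdTom, with the 7 member rows among them that were above 0 in both groups as labelled lines and the median of -0.23 as a dotted line. These 7 rows ran from the IPW row at -2.18 to SNORD116-1 at 1.33, with SNURF/SNRPN and SNORD116-2 to the right of the median.

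Gene lists related to the members by function were described beside them, each with 1 row per symbol. Of 13 rows for Sm and U snRNP proteins, the complexes that SmN belongs to, 1 was at least 1.5-fold lower with TTP, none was 1.5-fold higher, and the median log2 ratio was -0.17, beside 23.7% lower, 6.16% higher and a median of -0.23 over the background. SNRPB2 stood at 64.5 FPKM in the tdTom group and 41.6 FPKM in the TTP-tdTom group, SNRPE at 8.77 FPKM and 6.69 FPKM, and SNRPD3 at 70.5 FPKM and 70.0 FPKM. SNURF/SNRPN had the highest log2 ratio of this list, at 0.05. Of 10 rows for proteins that assemble box C/D snoRNPs, 1 was at least 1.5-fold lower (background 23.7%), none was 1.5-fold higher, and the median was -0.26. ZNHIT6, an assembly factor, stood at 36.6 FPKM in the tdTom group and 23.0 FPKM in the TTP-tdTom group, and the core protein NOP58 at 108.6 FPKM and 84.5 FPKM. NOP56, the other core protein of that pair, stood at 189.8 FPKM in the tdTom group and 179.5 FPKM in the TTP-tdTom group, and RUVBL2 at 82.2 FPKM and 80.2 FPKM.

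HECT ubiquitin ligases, the enzyme family of E6-AP, pass ubiquitin to their substrates through a catalytic cysteine. Of 24 rows with a mean of at least 1 FPKM, 7 were at least 1.5-fold lower with TTP, UBE3A among them, none was 1.5-fold higher, and the median log2 ratio was -0.44. HERC3 stood at 5.19 FPKM in the tdTom group and 1.87 FPKM in the TTP-tdTom group. UBE3C stood at 18.6 FPKM in the tdTom group and 8.03 FPKM in the TTP-tdTom group, a log2 ratio of -1.20 beside the -1.11 of UBE3A. HECTD3 stood at 4.53 FPKM and 4.94 FPKM, and KIAA0317 at 7.66 FPKM and 7.71 FPKM, in the tdTom and TTP-tdTom groups respectively. The share of 7 in 24 lay near the background of 23.7%.

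Of 9 rows for the MAGE family and MAGEL2 partners, 3 were at least 1.5-fold lower with TTP, none was 1.5-fold higher, and the median log2 ratio was -0.32, beside 23.7% lower, 6.16% higher and -0.23 over the background. NDNL2 stood at 4.43 FPKM in the tdTom group and 2.66 FPKM in the TTP-tdTom group, and MAGEF1 at 72.8 FPKM and 45.7 FPKM. MAGED1 stood at 104.4 FPKM and 95.3 FPKM, and TRIM27, a ubiquitin ligase that works with MAGEL2, at 16.0 FPKM and 16.1 FPKM. Of 16 rows for imprinted genes on other chromosomes, 3 were at least 1.5-fold lower (background 23.7%), none was 1.5-fold higher, and the median was -0.25. PHLDA2 stood at 97.6 FPKM in the tdTom group and 19.6 FPKM in the TTP-tdTom group, and RB1 at 35.4 FPKM and 11.4 FPKM. GRB10 stood at 3.72 FPKM and 4.37 FPKM, and SLC22A18 at 7.90 FPKM and 8.63 FPKM.

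**Figure D4:**
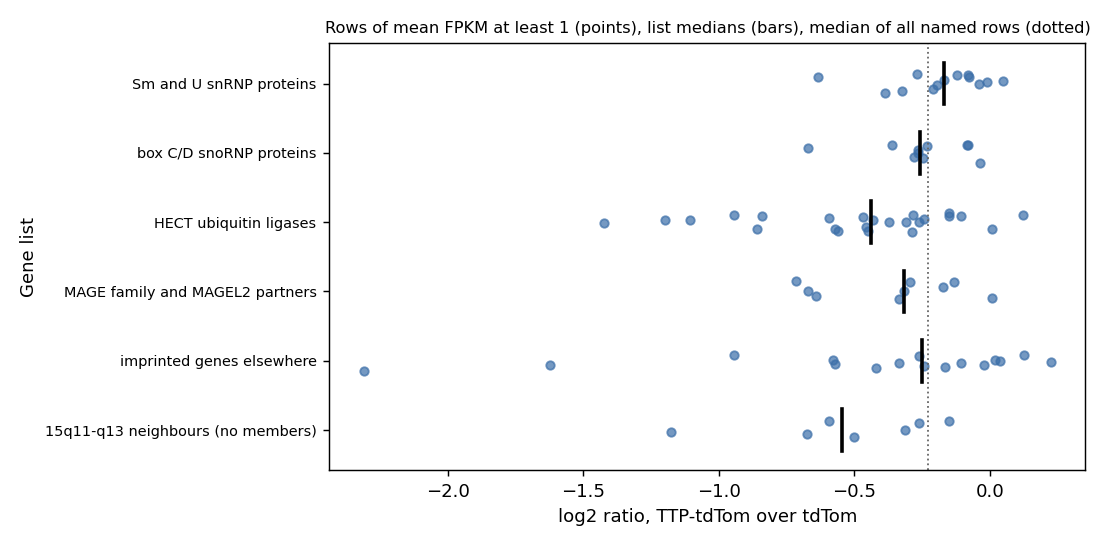
log2 ratio of TTP-tdTom over tdTom for each row with a mean of at least 1 FPKM (points) in 6 gene lists, with each list's median (bar) and the median of all named rows (dotted line, -0.23); OCA2, listed at 0 with TTP, counts in its list's median but is not drawn. List medians ran from -0.55 for the chromosome 15 neighbours to -0.17 for the Sm and U snRNP proteins.

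For each member row of at least 1 FPKM the symbols nearest in the log2 FPKM of both groups were found, over these 2 group values only. The nearest to SNURF/SNRPN were NDUFA1, ACOT7 and ATP5O, with NDUFA1 at 141.2 FPKM in the tdTom group and 136.8 FPKM in the TTP-tdTom group. The nearest to UBE3A were HIGD1A, LRRFIP1 and SLC25A32, with HIGD1A at 31.0 FPKM and 14.4 FPKM. The nearest to the IPW row was PHLDA2, itself an imprinted gene of chromosome 11, followed by SNORD88B (82.9 FPKM in the tdTom group and 15.9 FPKM in the TTP-tdTom group) and SCOC. For SNORD116-1 they were SNORA32 (76.3 FPKM and 172.2 FPKM), POLR1C and SNORD23 (46.6 FPKM and 179.5 FPKM). SNORD116-2 lay nearest to NOP2, SLC7A6 and USP48, SNORD116-18 to C1orf27 and RAPGEF5, and SNORD116-26 to ABHD10, ATAD2 and ERRFI1. SNORD115-2 lay nearest to LOC100131733, MYOM3 and SLC15A1, all 3 listed at 0 in the tdTom group.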

How the data were processed

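The authors sequenced 6 samples, 3 per group, as strand-specific paired-end libraries with 75-base reads. Per the methods and the submitters' processing notes, reads were aligned with TopHat2 2.0.13 to Hs37D5 (GRCh37 with decoy) and assembled and compared with Cufflinks 2.2.1. The deposited table gives the authors' FPKM as 1 value per group and row, with no strand column. The SNRPN and UBE3A series of row numbers were not used to part rows by strand, so counts and medians pool both. Its columns of fold change, test statistic, p and q hold the authors' comparison and were not used. The status mark was read as a description of depth. Values of single samples were not used here, so the fit planned for values per sample was not run, and whether the 3 samples of a group were separate cultures is not given in the sources used here.

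Log2 ratios were computed as TTP-tdTom over tdTom with 0.1 FPKM added, and the background was rows with a symbol and a mean of at least 1 FPKM. Row starts were counted from 1. Where a symbol had several rows, lists used the one with the most RefSeq transcripts and, at a tie, the highest mean FPKM. The members and lists were chosen with earlier results of these data known. The genes named were the member rows (those at 0 as counts), the other chromosome 15 neighbours, the 2 lowest and 2 highest log2 ratios of each other list, ZFP36 and the 3 symbols nearest to each member row; HTR2C and SNRPB were added for the sequence comparisons, and KRT18 to check the cell type. Some genes under this rule are not reported here. Sequences came from GENCODE release 29 transcripts matched by name, whose GRCh38 coordinates are not used. Alternatives were other pseudocounts, centring, rescaling, filters and folds. The functions were tested on simulated data. Python 3.11.15, numpy 2.4.6, pandas 2.3.3, Biopython 1.88 and matplotlib 3.10.9 were used.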

Additional observations from a re-analysis of the deposited data

How the results depend on the processing

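No paired analysis was possible because the table holds 1 value per group, and for the same reason no replicate could be left out and no block fitted. The log2 ratio of the SNURF/SNRPN row was 0.28 when centred on the median of named rows (a shift of 0.23), 0.10 with named rows brought to the same sum (a shift of 0.05) and 3.14 with all rows brought to the same sum. The IPW row gave -2.19 with a pseudocount of 0.01 or none, -2.13 with a pseudocount of 1, -1.95 when centred, -2.13 with the named sum and 0.90 with the sum over all rows. UBE3A gave -1.06 with a pseudocount of 1, -0.88 when centred, -1.05 with the named sum and 1.98 with the sum over all rows, and SNORD116-26 likewise turned to 1.56. That last scaling shifts ratios by about 3.09 and rests on a few rows, since rows over 10000 FPKM, of which there were 124 without and 83 with TTP, held 99.5% and 95.4% of the sums. Of the 29 values of the other single rows under these settings, 27 kept their direction, and the exceptions, both with the sum over all rows, were SNORD116-26 and SNORD116-18, which went to 2.56.

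The background of 23.7% lower became 9.84% at a fold of 2. The background of 6.16% higher became 16.6% with no filter, 1.18% at a mean of at least 10 FPKM, 3.08% with 1 row per symbol and, chosen after seeing the data, 17.3% in noncoding rows; the cause was not tested. The median of the imprinted genes elsewhere was -0.26 with a symbol's rows summed. The median of the chromosome 15 neighbours without members was -0.50 with rows summed or without the row listed at 0. Also chosen after seeing the data was a mean of at least 1 FPKM for rows without a symbol above 0 in both groups. This gave -0.54 before SNORD116-1, -0.34 from SNORD115-1 to UBE3A and, on 3 rows, -0.23 between IPW and SNORD115-1, where the median was 1.39. That -0.23 leaves out a further row of such a mean, at 0 in the tdTom group and 15.8 FPKM in the TTP-tdTom group. Depth is unknown, so values near or under 1 FPKM limit what can be read from SNORD115, NDN and MAGEL2.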
